A study of Mus musculus with 6 samples.

Results

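MiR-298 and miR-296 are a pair of microRNAs whose hairpins lie next to each other at the imprinted Gnas-Nespas locus of the mouse. Their mature strands were taken by name from a table of miRNA read counts in whole thymus. Of 4 strands named, 3 were among the 1390 miRNAs of the table: miR-298-5p (mmu-miR-298-5p), miR-298-3p (mmu-miR-298-3p) and miR-296-3p (mmu-miR-296-3p). No value for miR-296-5p was analysed here. The irradiated group was 3 wild-type C57BL mice aged 5 weeks that received 6 Gy of X-rays, with thymus taken 24 h later. The control group was 3 unirradiated wild-type C57BL mice of the same age. Each library is one mouse by the labels, which also call the molecule polyA RNA. The pair was chosen by measured values of these same libraries, namely an irradiated-to-control difference in miR-298-5p that was already known to be large. The values of that contrast are therefore given as a description, without a p-value.

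At an imprinted locus only the copy inherited from one parent is active. Gnas encodes the stimulatory G-protein subunit that couples hormone receptors to cyclic AMP, and Nespas is an antisense RNA transcribed only from the paternal copy of the locus. MiR-296 and miR-298 are likewise expressed from the paternal copy in mouse. A miRNA hairpin is cut into a 5p and a 3p strand, and the strand that is kept pairs with target messenger RNAs through its seed, bases 2 to 8. In mouse embryonic stem cells miR-296 is known for acting on the pluripotency factor Nanog, and in mouse neuronal cells miR-298 is known for acting on the beta-secretase Bace1.

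The mature strands are shown because each carries its own seed, here in capitals, which decides what it can pair with. The sequences are those of RefSeq for GRCm38.p6, where all 4 strands were found, and they were identical to the deposited sequences for the 3 strands in the table.
miR-298-5p: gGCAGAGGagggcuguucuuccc
miR-298-3p: gAGGAACUagccuucucucagcuu
miR-296-5p: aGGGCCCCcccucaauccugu
miR-296-3p: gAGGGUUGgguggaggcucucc
The 4 seeds differ from each other. None of them occurs in any other of the 1738 mature miRNAs in the RefSeq table or in any other miRNA of the count table. The pair therefore shares a locus and no seed. The 2 strands with most reads, miR-298-5p and miR-296-3p, are 12 edits apart.

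Reads of the pair could be told apart from those of other miRNAs. The miRNA in the table closest to miR-298-5p, miR-194-1-3p, is 8 edits away, and 5 miRNAs, among them miR-149-3p, are 8 edits from miR-296-3p. No other miRNA of the table lay within 3 edits of any of the 3 strands. The 2 hairpins are shown with their mature strands in capitals, to show which arm each strand comes from.
Mir298: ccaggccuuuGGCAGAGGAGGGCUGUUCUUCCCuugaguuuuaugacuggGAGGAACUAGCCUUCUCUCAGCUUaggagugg
Mir296: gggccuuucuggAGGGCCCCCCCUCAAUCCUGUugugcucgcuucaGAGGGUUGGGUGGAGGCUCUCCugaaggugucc
Mir298 runs from 174267504 to 174267585 on the minus strand of chromosome 2 (GRCm38), and Mir296 from 174267047 to 174267125 on the same strand. The hairpins are separated by 378 bases. In GENCODE M21 no other gene overlaps either hairpin, so both are intergenic in that annotation. The nearest annotated gene at higher coordinates is Nespas (174281237 to 174295436), also on the minus strand, whose annotated end lies 13651 bases before Mir298. Gnas (174284320 to 174346744) lies on the plus strand.

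**Figure D1:**
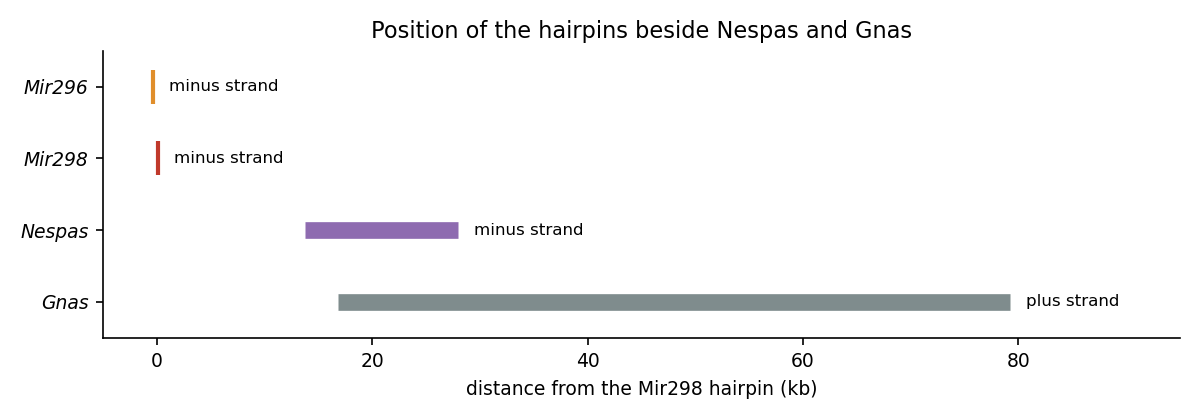
Position of the Mir296 and Mir298 hairpins, Nespas and Gnas on chromosome 2, drawn to scale as distance from the Mir298 hairpin in kb. Both hairpins lie on the strand of Nespas, past its annotated end, with 13651 bases between Nespas and Mir298.

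Libraries held 7730641 to 9287017 counts. Levels are CPM, counts scaled to a library total of 1000000 after adjustment with trimmed-mean (TMM) factors, which ranged from 0.823 to 1.39, and irradiated-to-control changes come from edgeR fitted to all 519 miRNAs that passed its low-count filter. Intervals on levels are exact 95% Poisson intervals and cover counting error only. The thymus label was set beside 6 thymocyte miRNAs, miR-181a-5p, miR-181b-5p, miR-181d-5p, miR-128-3p, miR-142a-3p and miR-150-5p, all of which were counted in every library. Their presence alone does not establish the tissue, and miR-142a-3p is found across blood cells, not in thymocytes alone. These 6 miRNAs held 0.627%, 0.423% and 0.622% of counts in irradiated replicates 1, 2 and 3. In control replicates 1, 2 and 3 they held 12.0%, 13.2% and 15.8%. In whole tissue, fewer cells of a type and less of an RNA per cell cannot be told apart.

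MiR-298-5p is the main strand of its hairpin. It had 34, 3 and 11 counts in irradiated replicates 1, 2 and 3, against 347, 493 and 529 counts in control replicates 1, 2 and 3. Scaled, it was at 4.44, 0.358 and 1.17 CPM in irradiated thymus, against 49.5, 45.7 and 64.9 CPM in control thymus. All irradiated libraries lay far below all control libraries, and irradiated replicate 2, with 3 counts, was at the level that a count of 0 would still allow. The mean was 1.99 ± 2.16 CPM in irradiated mice and 53.4 ± 10.2 CPM in control mice (SD, n = 3 each). The fitted log2 fold change was −4.76 ± 0.69 (SE), the 12th lowest among the 519 tested miRNAs. By mean level miR-298-5p stood at rank 441 in irradiated and at rank 190 in control thymus among all 1390 miRNAs. Single irradiated mice moved the change: it was −6.07 with irradiated replicate 1 left out and −4.06 with replicate 2 left out.

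MiR-296-3p is the one strand of the neighbouring hairpin that was measured. It had 43, 18 and 27 counts in irradiated replicates 1, 2 and 3, against 380, 518 and 502 counts in control replicates 1, 2 and 3. Scaled, it was at 5.61, 2.15 and 2.87 CPM in irradiated thymus, against 54.2, 48.1 and 61.6 CPM in control thymus. The groups did not overlap, and irradiated replicate 2 was again the lowest library and irradiated replicate 1 the highest irradiated one. Means were 3.54 ± 1.83 CPM in irradiated mice and 54.6 ± 6.77 CPM in control mice (SD, n = 3 each). The fitted log2 fold change was −3.95 ± 0.40 (SE), the 18th lowest of 519. It was −4.44 with irradiated replicate 1 left out and −3.49 with replicate 2 left out. The 2 strands stood next to each other in control thymus, at ranks 189 and 190 of 1390.

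MiR-298-3p, the strand that is mostly discarded, was close to the detection limit. It had 0, 1 and 0 counts in irradiated replicates 1, 2 and 3, against 4, 2 and 5 counts in control replicates 1, 2 and 3. It did not pass the low-count filter and has no fitted edgeR change here. Over whole groups there was 1 count in irradiated libraries against 11 counts in control libraries. The ratio of scaled rates was 0.0926, with a 95% counting interval of 0.00215 to 0.637. That interval describes the chosen contrast and is no test of it. MiR-298-5p made up 48 of 49 reads of the hairpin in irradiated libraries (98.0%, exact 95% binomial interval 89.2% to 99.95%) and 1369 of 1380 reads in control libraries (99.2%, 98.6% to 99.6%). The intervals on the ratio and the shares pool the reads of each group's mice. They cover counting error only and leave out the spread among mice. The few irradiated reads do not allow these shares to be told apart at this depth.

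**Figure D2:**
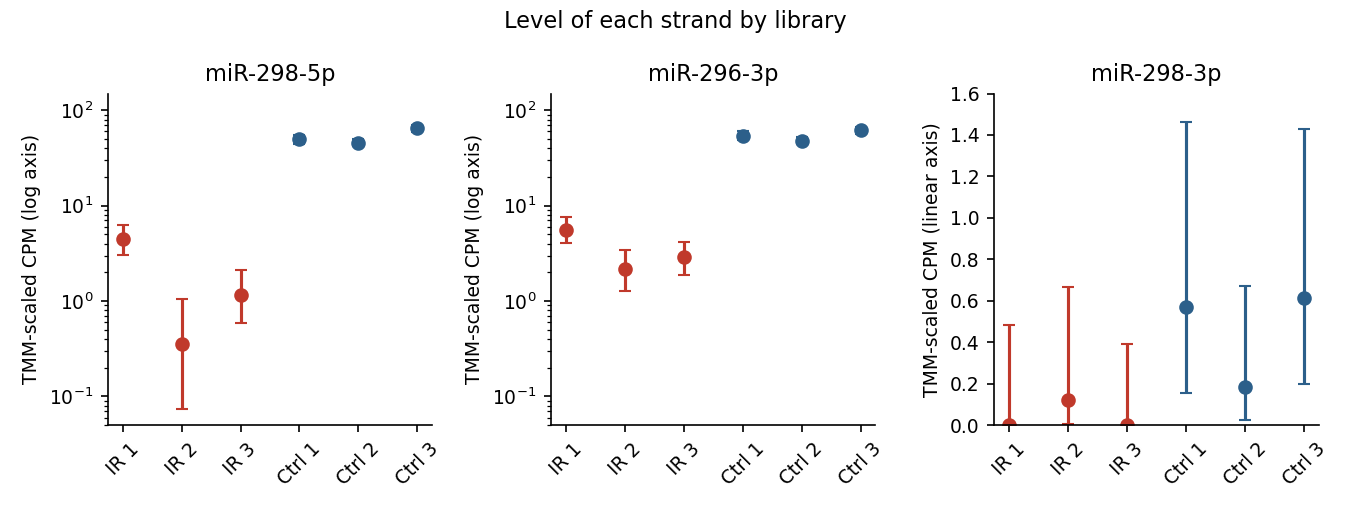
Level of each strand in TMM-scaled CPM in 3 irradiated (IR, red) and 3 control (Ctrl, blue) thymus libraries, on log axes for miR-298-5p and miR-296-3p and on a linear axis for miR-298-3p; bars are exact 95% Poisson intervals. For miR-298-5p the irradiated libraries lie between 0.358 and 4.44 CPM and the control libraries between 45.7 and 64.9 CPM.

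Both members that were tested were lower at an edgeR adjusted p of 0.05. Of all 519 tested miRNAs, 33.5% were lower and 27.7% higher by the same rule, and 36.6% had all irradiated libraries below all control libraries, as both members did. Because this contrast was known when the pair was picked, nothing is read from that count. The median log2 change was 0.01 over all tested miRNAs. Among 72 other miRNAs whose control mean was within 2-fold of that of miR-298-5p, a band set after the values were seen, 32 were lower and 19 were higher and the median log2 change was −0.59. In the authors' deposited table the log2 fold change is −4.62 for miR-298-5p and −3.86 for miR-296-3p. For miR-298-3p it is −3.35, which rests on 1 irradiated count against 11 control counts.

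**Figure D3:**
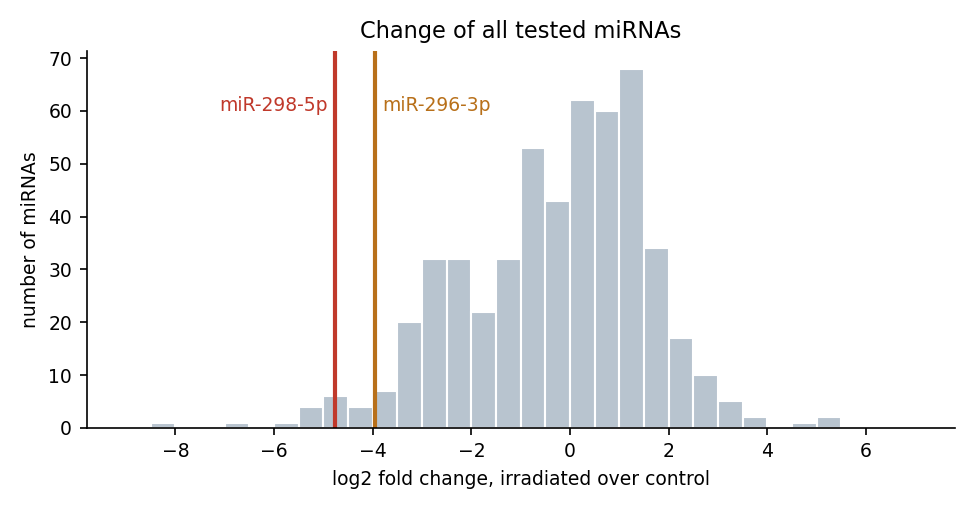
Histogram of the edgeR log2 fold change of irradiated over control for 519 tested miRNAs, with miR-298-5p (red line) and miR-296-3p (orange line) marked. The 2 strands, at −4.76 and −3.95, lie in the lower tail, while the median of all is 0.01.

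The 2 strands had near-equal reads in every control thymus and unequal reads in irradiated replicates 2 and 3. Of the reads of miR-298-5p and miR-296-3p together, miR-298-5p made up 44.2% (exact 95% binomial interval 32.8% to 55.9%), 14.3% (3.05% to 36.3%) and 28.9% (15.4% to 45.9%) in irradiated replicates 1, 2 and 3. In control replicates 1, 2 and 3 it made up 47.7% (44.1% to 51.4%), 48.8% (45.6% to 51.9%) and 51.3% (48.2% to 54.4%). Every irradiated share lay below every control share, but the interval of irradiated replicate 1 spans all the control shares, while those of replicates 2 and 3 lie below them. On the log2 scale, with 2 counts added, the ratio of miR-298-5p to miR-296-3p averaged −1.16 ± 0.84 in irradiated and −0.04 ± 0.11 in control libraries (SD, n = 3 each), a difference of −1.12. That difference was −0.70 with irradiated replicate 2 left out and −1.54 with replicate 1 left out. It comes from the contrast on which the pair was picked and was not tested.

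Set against the thymocyte miRNAs of the same library, the pair was not uniformly lower. MiR-298-5p had 626, 83.0 and 190 reads per 1000000 reads of the 6 thymocyte markers in irradiated replicates 1, 2 and 3, against 340, 483 and 406 in control replicates 1, 2 and 3. The irradiated libraries lay on both sides of the control range. MiR-296-3p had 791, 498 and 467 such reads in irradiated replicates 1, 2 and 3, against 372, 507 and 385 in control replicates 1, 2 and 3, and the groups overlapped. As a log2 ratio to the same markers, miR-298-5p differed between groups by −0.57 and miR-296-3p by 0.55. The value for miR-298-5p was −0.08 with irradiated replicate 2 left out and −1.21 with replicate 1 left out. The largest part of the marker sum is miR-181a-5p, at 3325 ± 1046 CPM in irradiated and 94361 ± 29174 CPM in control thymus (SD, n = 3 each). It had 32398, 18247 and 33626 of 54342, 36131 and 57759 marker counts in irradiated replicates 1, 2 and 3. In control replicates 1, 2 and 3 it had 726361, 664839 and 960207 of 1020801, 1021447 and 1302637. MiR-142a-3p, which is not particular to thymocytes, had 7819, 7898 and 9558 marker counts in irradiated replicates 1, 2 and 3. In control replicates 1, 2 and 3 it had 47911, 87408 and 54109. The make-up of the sum thus differed between groups, and ratios to single markers were not computed. By edgeR, 5 of the 6 markers were lower in irradiated thymus. MiR-150-5p, which marks mature rather than immature lymphocytes, was at 794 ± 307 CPM in irradiated and 984 ± 69.0 CPM in control thymus (SD, n = 3 each) and did not pass, though it did with irradiated replicate 1 left out (edgeR, adjusted p = 0.0321).

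**Figure D4:**
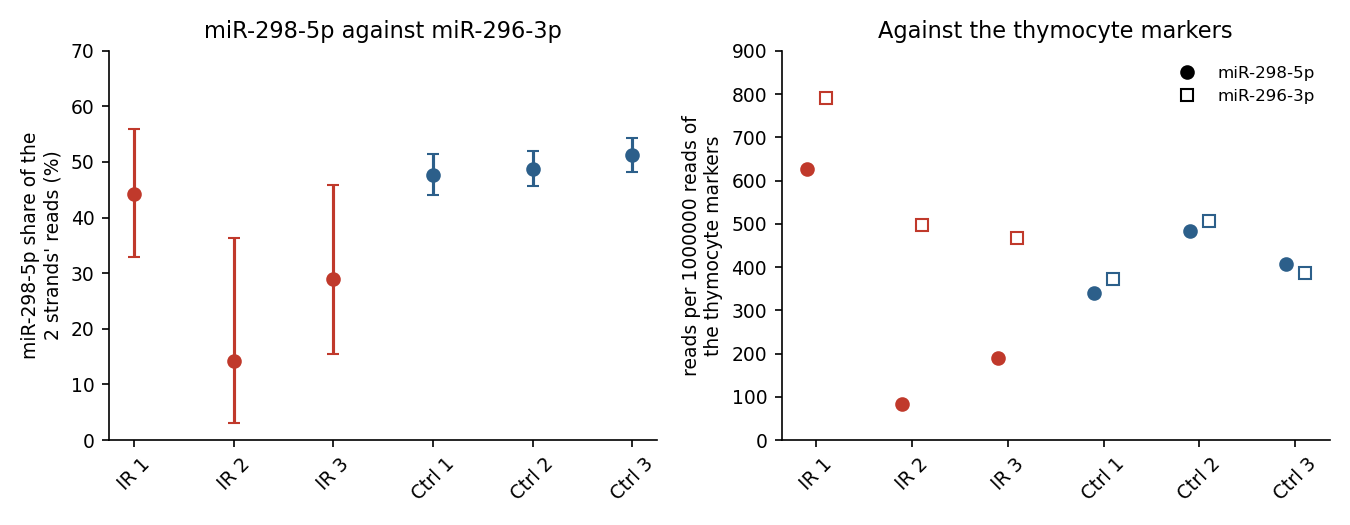
Left, share of miR-298-5p (%) among the reads of miR-298-5p and miR-296-3p in each irradiated (IR, red) and control (Ctrl, blue) library, with exact 95% binomial intervals. Right, reads of each strand per 1000000 reads of 6 thymocyte marker miRNAs; miR-298-5p (filled circles) runs from 83.0 to 626 in irradiated libraries and from 340 to 483 in control libraries.

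The irradiated mice differed from one another in miR-298-5p more than in most tested miRNAs of that level. Its highest irradiated library was 12.4 times its lowest, while its highest control library was 1.42 times its lowest. For miR-296-3p these ratios were 2.61 in irradiated and 1.28 in control libraries. The coefficient of variation of miR-298-5p among irradiated mice was 109%. Of 115 other tested miRNAs with an irradiated mean within 2-fold of its own, 1 had a larger one (median of the 115, 31.8%). For miR-296-3p it was 51.6%, and 24 of 117 such miRNAs had a larger one. These bands too were set after the values were seen, and they hold only miRNAs past the low-count filter. MiR-298-5p passed that filter through its control libraries. MiRNAs that passed it through all irradiated libraries could not be very low in any of them. The comparison is therefore uneven, and it does not cover untested miRNAs. A wide spread was not particular to miR-298-5p: miR-18b-5p, which lay at a higher irradiated level, had a coefficient of variation of 116% among irradiated mice, and its highest irradiated library was 14.8 times its lowest.

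Markers of other tissues also differed among the irradiated libraries. Irradiated replicate 2, the lowest for both strands, was the highest of all libraries in the summed level of 3 striated muscle miRNAs, at 602, 20110 and 13393 CPM in irradiated replicates 1, 2 and 3 against 202 to 480 CPM in control libraries. It was likewise the highest for 3 red-cell miRNAs, at 604, 5027 and 1981 CPM against 480 to 724 CPM in control libraries. The 6 thymocyte miRNAs summed to 7090, 4312 and 6131 CPM in irradiated replicates 1, 2 and 3 against 94771 to 159800 CPM in control libraries. The part of these differences in the values of the pair was not tested. Markers of thymic epithelium summed to 11153 to 16340 CPM in irradiated and 3582 to 4434 CPM in control libraries, with 4 of 5 higher by edgeR. Of 4 markers of stroma and vessels 2 were higher, miR-199a-3p and miR-126a-3p. The sum of the 4 was 203760 to 322140 CPM in irradiated and 89094 to 237980 CPM in control libraries. Most of that sum was miR-143-3p, whose groups overlapped and which did not pass (edgeR, adjusted p = 0.118). Of 4 neuroendocrine miRNAs 3 were tested. MiR-9-5p was higher, but not with library totals as the scaling (edgeR, adjusted p = 0.0609), and miR-7a-5p was lower, but lost the call under 10 alternatives, among them upper-quartile factors (0.398) and irradiated replicate 2 left out (0.259). The sum of the 4 was 2915 to 3618 CPM in irradiated and 4059 to 4931 CPM in control libraries.

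The miRNAs whose profile over the 6 libraries was most like that of each strand were named by the root-mean-square (RMS) difference in log2 CPM after centring each on its control mean, among 309 candidates at a mean of at least 10 CPM. For miR-298-5p they were miR-20b-5p (RMS 0.39), miR-363-3p (0.45), miR-18b-5p (0.58), miR-181a-5p (0.66) and miR-106a-5p (0.70). All of these but miR-181a-5p come from the X-linked miR-106a-363 cluster. They too were lowest in irradiated replicate 2, which a choice by closeness over these same libraries favours. MiR-20b-5p was at 34.3 CPM in irradiated and 996 CPM in control thymus, a change of −4.86 ± 0.48 (SE) on the log2 scale. For miR-296-3p they were miR-363-5p (0.34), miR-15b-5p (0.34), miR-18a-5p (0.34), miR-181c-5p (0.36) and miR-130b-3p (0.40). The 2 strands of the pair were 0.93 apart, and 28 candidates were closer to miR-296-3p and 7 closer to miR-298-5p than the pair was to itself. The strands lay furthest apart in irradiated replicates 2 and 3, where miR-298-5p rests on 3 and 11 counts. Counting error thus enters this distance, and its part was not tested.

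**Figure D5:**
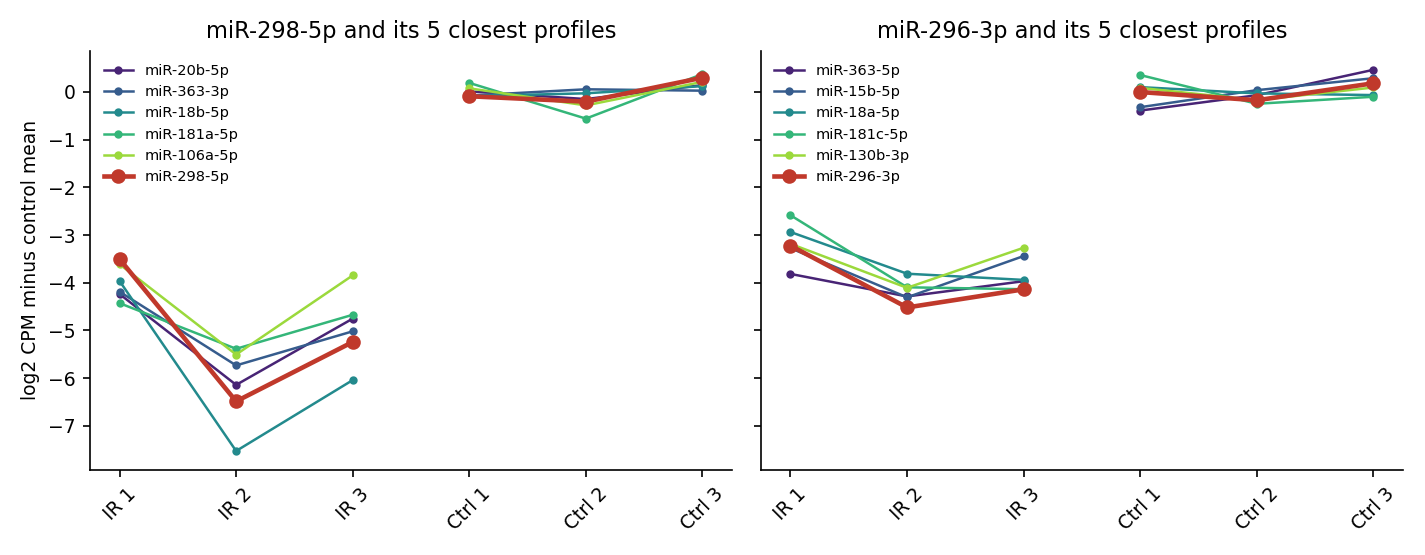
Log2 CPM minus the control mean in 3 irradiated (IR) and 3 control (Ctrl) libraries for miR-298-5p (left, red) and miR-296-3p (right, red), each with the 5 miRNAs of closest profile. Lines join libraries of one group only to guide the eye; miR-298-5p is lowest in irradiated replicate 2.

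Other imprinted loci and the chromosomal neighbourhood were examined beside the pair. The imprinted list held strands from Mest, H19 and Igf2 and none from the larger imprinted Sfmbt2 and Dlk1-Dio3 clusters, so it does not speak for imprinted miRNAs in general. MiR-335 comes from an intron of the imprinted gene Mest. MiR-335-5p was at 18.1, 11.0 and 10.9 CPM in irradiated replicates 1, 2 and 3, against 2.71, 3.99 and 4.91 CPM in control replicates 1, 2 and 3. It rose by 1.78 ± 0.37 (SE) on the log2 scale (edgeR, adjusted p = 0.00272). MiR-335-3p was at 5.61, 20.2 and 11.5 CPM in irradiated replicates 1, 2 and 3, against 6.56, 4.92 and 5.52 CPM in control replicates 1, 2 and 3, so the groups overlapped. Its change was 1.14 ± 0.45 (SE) on the log2 scale (edgeR, adjusted p = 0.0499), and the call was lost without any 1 of irradiated replicates 2 and 3 and control replicates 1, 2 and 3 (0.0501 to 0.160). Strands of miR-675, from H19, and of miR-483, from Igf2, had at most 3 counts in any library and were not tested. From the Sfmbt2 cluster, miR-467e-5p was added after its values were seen. Irradiated replicates 1, 2 and 3 had 51.3, 27.5 and 37.7 CPM of it. Control replicates 1, 2 and 3 had 195, 258 and 228 CPM, so it was lower in irradiated thymus like the pair. As a single strand picked with its values known, it does not speak for that cluster.

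Within 10 Mb of Mir298 on chromosome 2, GENCODE M21 lists 17 other miRNA genes, of which 7 matched the table by hairpin sequence. Their 10 mature strands include 2 that were tested, and neither was lower. MiR-133a-3p, a striated muscle miRNA with one of its genes 6.13 Mb from Mir298, was at 13.8, 418 and 146 CPM in irradiated replicates 1, 2 and 3, against 7.27, 4.45 and 8.34 CPM in control replicates 1, 2 and 3. Its change was 4.85 ± 1.16 (SE) on the log2 scale (edgeR, adjusted p = 0.0104). The call was lost in edgeR without control replicate 3 (0.0556) and without the low-count filter (0.0932), and under limma-voom (0.0605). MiR-124-5p, a strand of a neuronal miRNA with one of its genes 6.63 Mb away, was at 4.01 CPM in irradiated and 3.60 CPM in control thymus (0.16 ± 0.33 SE on the log2 scale, adjusted p = 0.680 by edgeR). Both have further genes elsewhere, so their reads do not report on this chromosome alone.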

How the data were processed

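Small-RNA libraries of 3 irradiated and 3 control thymuses were compared. Per the file headers, the deposited table gives read counts per mature miRNA and the authors' TPM values, which equal each count scaled to a library total of 1000000 (largest difference 4.61e-05). It also holds the authors' deposited log2 fold changes. The submitters' processing notes name DESeq2 1.10.1. Which aligner, counter and genome build were used is not given in the sources used here. A further 6 count columns were not used here.

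The counts were analysed with edgeR 4.0.16 in R 4.3.3 (TMM factors, filterByExpr defaults, robust quasi-likelihood test, Benjamini-Hochberg adjustment over 519 tested miRNAs, threshold 0.05). A count of 0 allows up to 3 counts, 0.278 to 0.428 CPM per library. The reads carry no molecular identifiers, so intervals cover counting error only. Positions come from GENCODE M21 and sequences from RefSeq (GRCm38.p6).

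The members, lists and rules were chosen with earlier results of these data known. The named miRNAs are the members, the 5 closest profiles of each tested member, an imprinted list of 6, miRNAs within 10 Mb of Mir298 and the marker lists. The closest sequences and miR-467e-5p were added after their values were seen. Alternatives were other scaling factors, filters and tests (DESeq2 1.42.0, limma-voom from limma 3.58.1), a replicate block, and leaving out a library or the most abundant miRNA. The planned comparison of miR-298-5p with miR-296-5p was made with miR-296-3p instead.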

Additional observations from a re-analysis of the deposited data

How the results depend on the processing

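The changes of the pair are descriptions under every setting, since the pair was chosen on this contrast. Over 10 other settings (other factors, filters, tests, the replicate block, and without the most abundant or the predicted miRNAs) the log2 fold change ranged from −5.36 to −4.28 for miR-298-5p and from −4.20 to −3.49 for miR-296-3p. Leaving out 1 library gave −6.07 to −4.06 and −4.44 to −3.49. The difference between the 2 strands within libraries was −1.29 with 0.5 and −0.90 with 5 counts added, and −1.54 to −0.70 with 1 library left out. The change relative to the thymocyte markers ranged from −1.21 to −0.08 for miR-298-5p and from 0.33 to 0.69 for miR-296-3p. The mean 5p share of miR-298 was 87.5% to 100% in irradiated and 99.0% to 99.3% in control libraries when 1 library was left out.

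The number of miRNAs past the threshold was 318 (144 higher, 174 lower), 266 to 374 with 1 library left out, 325 with DESeq2, and 210 with a mean of at least 10 CPM, where fewer (313) were tested. Upper-quartile factors gave 206 higher and 139 lower (59.7% higher, against 45.3%). The median log2 change of all miRNAs was 0.44 under upper-quartile factors, −0.13 under library totals and 0.12 under median-of-ratios factors. Of 36 other named miRNAs recomputed, 29 passed, and 8 of those lost the call under at least 1 alternative: all 3 muscle miRNAs, miR-451a, miR-144-3p, miR-7a-5p, miR-9-5p and miR-335-3p. Of the 7 that did not pass, 5 did under at least 1 alternative (miR-145a-5p, miR-150-5p, miR-486a-5p, miR-143-3p and miR-141-3p). None changed sign with a call.

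With the replicate number as a block, 298 miRNAs passed and the changes were −5.12 for miR-298-5p and −4.04 for miR-296-3p. Deviations of same-numbered libraries correlated at 0.10, −0.02 and 0.23, and those of differently numbered libraries at −0.25 to 0.11. With 3 libraries per group, these values cannot decide whether the numbers pair the mice. Depth limits the pair most in irradiated replicate 2, where miR-298-5p rests on 3 counts.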
